A study of Mus musculus with 19 samples.

Results

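The immediate early genes are a class of genes that cells transcribe within minutes of a stimulus, from transcription machinery that is already present, before any new protein is made. Described here are 10 of them, of 50854 genes in the count table: Ier2, Fos, Fosb, Jun, Junb, Egr1, Atf3, Dusp1, Nr4a1 and Zfp36. The set was chosen by a measured value, because Ier2 had one of the most negative fold changes of inflamed against resting CCR2+ve monocytes, and the set lists it with 9 other genes of the class. That contrast is therefore described without a test. Ier2 is given without a p wherever a CCR2+ve group is one side of a comparison, though counts and medians over the 10 members include it. All 10 members passed the filter of a mean of at least 1 read per library, as did 18652 genes in all.

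Bulk RNA-seq was performed on bone marrow cells sorted by flow cytometry from female REP mice, a reporter strain in which separate fluorescent proteins mark chemokine receptors of inflammation, including CCR1 and CCR2. The mice were 8 to 12 weeks old. Monocytes coexpressing CCR1 and CCR2 (CCR1/2+ve) or expressing CCR2 only (CCR2+ve) were compared at rest and in inflammation, to ask how far the populations differ and how each responds. Inflamed mice carried an osmotic pump under the skin that infused IL-3, IL-6, GM-CSF and IFN-α for 7 days. The study's methods describe marrow of resting mice, for transcriptomic analysis among other uses, with no mention of a pump, and vehicle pumps in a separate section. The labels name no pump for the resting libraries, so implantation and cytokines cannot be told apart. The 19 libraries fell into resting CCR1/2+ve (n = 4), resting CCR2+ve (n = 4), inflamed CCR1/2+ve (n = 3, replicates 2 to 4), inflamed CCR2+ve (n = 4) and a group whose titles read inflamed CCR1 (n = 4). Nothing in the labels says that the libraries of a group came from separate mice or how many mice were pooled, so p-values measure only the spread between these libraries, which may be technical.

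Each library held 22268658 to 30502009 reads on genes. The first 4 groups carried the defining monocyte genes, with mean Csf1r at 407 to 1500 CPM (reads of the gene scaled to the size of the library) and mean Ccr2 at 633 to 1250 CPM. The libraries labelled inflamed CCR1 carried far less of both genes. Their mean Csf1r was 17.7 CPM and their mean Ccr2 was 5.82 CPM. The tests below called 8 of 10 monocyte markers lower than in either inflamed monocyte population. Mean Ly6c2 was 1420 CPM against 1860 to 2650 CPM in the other groups, and mean Itgam 91.8 against 92.2 to 132 CPM. The summed level of 10 neutrophil markers was 97100 to 142000 CPM against 685 to 3230 CPM in the other 15 libraries. It was led by the granule protein gene Ngp at a mean of 86000 CPM. They are called the libraries labelled inflamed CCR1 throughout, and the fits between the other 4 groups do not contain them.

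The members cover the main steps of the early response. Growth factors, cytokines and stress reach them through MAP kinases and the factors SRF, ELK and CREB. Fos and Fosb encode partners of the Jun proteins Jun and Junb, and the pairs form the AP-1 transcription factor. Egr1 encodes a zinc finger transcription factor and Atf3 a factor of the same leucine zipper class as AP-1 that often represses inflammatory genes. Nr4a1 encodes an orphan nuclear receptor needed for the Ly6C-low monocyte lineage. Ier2 encodes a small nuclear protein. Dusp1 and Zfp36 end the response: the Dusp1 phosphatase inactivates MAP kinases, and the Zfp36 protein (tristetraprolin) binds AU-rich elements in the 3′ ends of mRNAs and speeds their decay. In monocytes these genes respond to adhesion, bacterial products and colony-stimulating factors.

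Promoter sequences were searched for elements through which such genes can be reached. RefSeq windows (build GRCm38.p6) were matched by symbol for 8 of the 10 members, and Ier2 and Egr1 had no entry. Windows of 150 bases that end at the transcription start are shown for 4 members that differ in their response below, 5′ to 3′ on the strand of the gene, with capitals marking the TATA box (TATAAA), the cyclic AMP response core (TGACG, bound by CREB and ATF factors) and the EGR site (GCGNGGGCG, bound by Egr1). Fos lies at chr12:85473740-85473889 (plus strand), Jun at chr4:95052223-95052372 (minus strand), Junb at chr8:84978749-84978898 (minus strand) and Nr4a1 at chr15:101266696-101266845 (plus strand).
Fos: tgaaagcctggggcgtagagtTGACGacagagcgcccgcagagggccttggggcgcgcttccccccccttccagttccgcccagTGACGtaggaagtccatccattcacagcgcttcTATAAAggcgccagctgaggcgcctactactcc
Jun: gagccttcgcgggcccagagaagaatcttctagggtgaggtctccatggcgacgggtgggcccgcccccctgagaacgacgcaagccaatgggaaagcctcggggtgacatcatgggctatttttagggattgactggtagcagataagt
Junb: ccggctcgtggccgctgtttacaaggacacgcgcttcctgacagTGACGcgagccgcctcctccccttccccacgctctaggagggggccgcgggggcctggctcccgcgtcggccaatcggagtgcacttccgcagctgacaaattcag
Nr4a1: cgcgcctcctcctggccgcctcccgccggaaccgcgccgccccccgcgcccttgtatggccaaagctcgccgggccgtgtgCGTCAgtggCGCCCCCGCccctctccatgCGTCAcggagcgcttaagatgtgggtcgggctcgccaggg

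In the full 250 bases before the start, the letters TGACG were found on either strand in 6 of the 8 members (Fos, Fosb, Junb, Atf3, Dusp1 and Nr4a1), against 17.8% of 32851 promoter windows of the same length. The EGR site was found in Fosb, Nr4a1 and Zfp36, against 4.7% of windows. The full palindrome TGACGTCA, which contains the core, was found in Dusp1 alone among the 8 (1.55% of windows), the CArG box bound by SRF in Zfp36 alone (1.47%), the TATA box in Fos alone (12.4%), and the AP-1 site TGANTCA in none of the 8 (6.75%). A match is a description of letters in this window and says nothing of binding. The sites of the 2 feedback genes are shown because Dusp1 was downregulated below and Zfp36 was not, with capitals marking the palindrome at chr17:26508597-26508626 (minus strand) and the CArG box at chr7:28379267-28379296 (minus strand).
Dusp1: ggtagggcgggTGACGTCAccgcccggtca
Zfp36: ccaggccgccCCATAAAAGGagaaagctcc

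At the other end of the transcript, the AU-rich heptamer TATTTAT, the core of the element that tristetraprolin binds, was counted in the 3′ UTR of each member. It occurred 3 times in Dusp1 and in Zfp36, 2 times in Fos, and 1 time each in Fosb, Jun and Atf3, while Ier2, Junb, Egr1 and Nr4a1 had no copy. Of 12447 tested genes with an annotated 3′ UTR, 28.5% had at least 1 copy. One site is shown for each of 4 members, 25 bases on the strand of the gene with the heptamer in capitals, from chr12:85477105-85477129 (Fos), chr4:95049081-95049105 (Jun), chr17:26506161-26506185 (Dusp1) and chr7:28376968-28376992 (Zfp36) of build GRCm38.
Fos: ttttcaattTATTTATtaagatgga
Jun: gcttgtgcaTATTTATaatagcgtt
Dusp1: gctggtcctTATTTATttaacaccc
Zfp36: tgggcccttTATTTATgacgacttt

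Per kilobase of exon, the scale on which genes can be set beside each other, resting CCR1/2+ve monocytes held most Ier2, at a mean of 227 CPM per kb. Zfp36 (58.9), Junb (55.2) and Fos (48.3 CPM per kb) formed a middle tier. Jun, Dusp1, Nr4a1 and Atf3 lay between 5.36 and 8.82 CPM per kb, and Fosb (0.191) and Egr1 (0.122 CPM per kb) were close to the limit of counting. In inflamed CCR1/2+ve monocytes the order was different. Zfp36 led with 75.2 CPM per kb, Fos (44.6) and Nr4a1 (10.5) followed, and Ier2 came next with 8.26 CPM per kb.

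**Figure D1:**
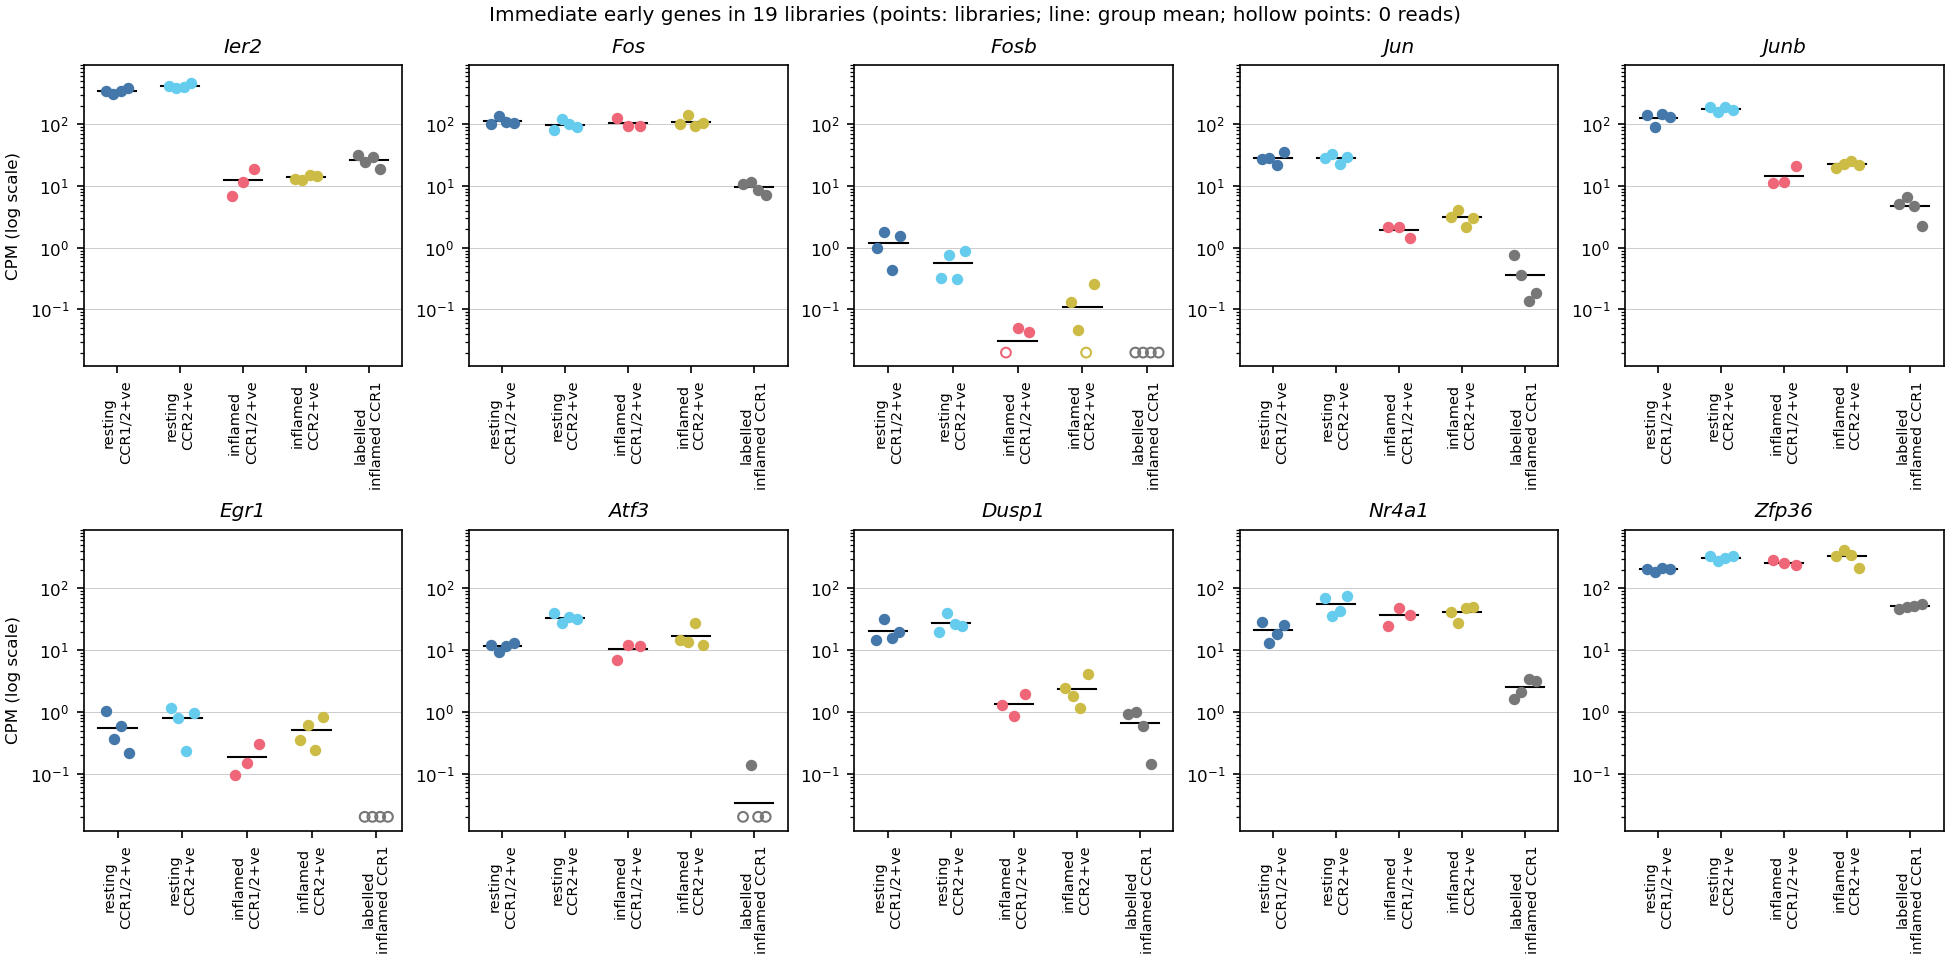
CPM of each immediate early gene (log scale) in every library of the 5 groups, with the group mean as a line and libraries with 0 reads as hollow points at the bottom. Ier2, Jun, Junb and Dusp1 are lower in every inflamed library than in every resting one, the ranges of Fos overlap in all groups but the libraries labelled inflamed CCR1, and Egr1 and Fosb have 0 reads in all 4 of those.

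The first test asked whether the members change with inflammation in CCR1/2+ve monocytes, a contrast that the choice of the set does not name, though the set was drawn up with results of the whole series known. The response split the set. Ier2, the AP-1 genes Fosb, Jun and Junb, and the MAP kinase phosphatase Dusp1 were downregulated, while Fos, Atf3, Nr4a1, Zfp36 and Egr1 did not pass the test. Calls required an adjusted p under 0.05 together with a log2 fold change of 1 or more in either direction, and 5 of 10 members were called lower, beside 19.4% of the 18652 genes tested. None of the 10 was called higher, beside 9.16% of all genes. The median log2 fold change was -2.45 over the members and -0.25 over all genes. In bulk samples, fewer expressing cells and less RNA per cell cannot be told apart.

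Ier2 (chr8:84661331-84662852, minus strand, 1 exon) measured 350, 304, 345 and 385 CPM in resting CCR1/2+ve libraries and 6.93, 11.7 and 19 CPM in inflamed ones. The groups did not come near each other, and the inflamed libraries differed among themselves more than 2-fold. The log2 fold change was -4.90 ± 0.33 (SE, edgeR quasi-likelihood test, Benjamini-Hochberg adjusted p = 2.52e-06), a 29.9-fold lower level.

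Jun (chr4:95049034-95052222, minus strand, 1 exon) measured 27.3, 27.9, 22.1 and 35.2 CPM at rest and 2.18, 2.20 and 1.41 CPM in inflammation. Every inflamed library was more than 10-fold below every resting one. Its log2 fold change was -4.0 ± 0.23 (edgeR quasi-likelihood test, adjusted p = 6.72e-08). Junb (chr8:84974484-84978718, minus strand, 1 exon in its longest transcript) can restrain the activity of Jun within AP-1. It measured 139, 89.4, 148 and 132 CPM at rest and 11, 11.5 and 21.3 CPM in inflammation. The highest inflamed library stayed well below the lowest resting one, and the log2 fold change was -3.24 ± 0.28 (edgeR, adjusted p = 1.42e-05). Antisense exons overlap 7.28% of the exon bases of Jun (Junos) and 7.52% of those of Junb (Prdx2), and the strand setting of the counting is not given in the sources used here.

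Fosb (chr7:19302696-19310051, minus strand) was scarce throughout. Its reads numbered 30, 59, 11 and 50 in the resting libraries and 0, 1 and 1 in the inflamed ones. With 2 reads in the whole inflamed group, its level was 39.3-fold lower with an exact 95% interval of 10.7 to 327 that covers counting error only, and it was called lower (edgeR quasi-likelihood test, adjusted p = 0.000324).

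Dusp1 (chr17:26505590-26562128, minus strand) measured 14.6, 31.4, 15.9 and 19.6 CPM at rest and 1.31, 0.850 and 1.93 CPM in inflammation. The resting libraries spread about 2-fold and all lay above the inflamed ones. The log2 fold change was -4.03 ± 0.39 (edgeR, adjusted p = 1.65e-05). The other feedback gene, Zfp36 (chr7:28376784-28380253, minus strand), showed no such fall. It measured 206, 187, 217 and 209 CPM at rest and 284, 260 and 238 CPM in inflammation. The inflamed libraries all lay above the resting ones by a small step, with a log2 fold change of 0.22 ± 0.08 that did not pass (edgeR, adjusted p = 0.0519).

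Fos (chr12:85473890-85477273, plus strand) measured 101, 138, 110 and 104 CPM at rest and 127, 92.4 and 94.9 CPM in inflammation. The highest inflamed library lay within the resting range and the other 2 lay below it, and the log2 fold change was -0.25 ± 0.15 (edgeR, adjusted p = 0.197). The mean was 113 ± 17.0 CPM (SD, n = 4) at rest and 105 ± 19.4 CPM (n = 3) in inflammation, while the other AP-1 genes of the set fell. Per kilobase, Fos mRNA exceeded Jun mRNA in both states, at 48.3 against 8.82 CPM per kb at rest and 44.6 against 0.605 CPM per kb in inflammation.

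Atf3 (chr1:191170296-191218039, minus strand) measured 9.45 to 12.9 CPM in the 4 resting libraries and 7.03, 12.2 and 11.8 CPM in the inflamed ones, with a log2 fold change of -0.28 ± 0.21 (edgeR, adjusted p = 0.300). Nr4a1 (chr15:101254269-101274795, plus strand) measured 28.8, 13.3, 18.3 and 25.7 CPM at rest and 24.6, 48.3 and 37.7 CPM in inflammation. One inflamed library lay within the resting range and the others above it (log2 fold change 0.65 ± 0.30, edgeR, adjusted p = 0.105). Egr1 had 31, 12, 15 and 7 reads at rest and 2, 3 and 7 reads in inflammation. Its log2 fold change of -1.66 ± 0.71 did not pass (edgeR, adjusted p = 0.0793), but it did without resting CCR1/2+ve replicate 4, at -1.93 (adjusted p = 0.0387).

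Markers of other cells moved in the same comparison. Of 10 neutrophil markers, 7 were called higher and 1 lower, with a summed level of 2560 to 3230 CPM in inflamed against 858 to 1170 CPM in resting CCR1/2+ve libraries. Most of that difference was Mmp8, with means of 1610 and 451 CPM, which was at 9.1 CPM in the libraries labelled inflamed CCR1. Of 10 erythroid markers, 8 were called lower (2.33 to 5.23 against 61.7 to 189 CPM), and of 6 basophil and mast cell markers, 5 were called higher (127 to 179 against 0.0924 to 19.6 CPM). Dendritic cell and tissue macrophage markers each had 4 of 10 called lower and 2 higher, with higher sums in inflammation (1050 to 1300 against 236 to 557 CPM, and 605 to 649 against 218 to 302 CPM, the latter mostly Adgre1). Of 10 monocyte markers 3 were called higher and 1 lower (40100 to 44400 against 26500 to 38200 CPM). That sum was mostly Lyz2, with means of 35900 and 27600 CPM. No marker of these 6 lists was at 0 throughout either group, and their part in the members' changes was not tested.

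In CCR2+ve monocytes, the contrast that chose the set, the values are given as a description. Ier2 measured 409, 385, 407 and 473 CPM at rest and 12.8, 12.3, 15.1 and 14.5 CPM in inflammation, with a fitted log2 fold change of -5.00, and ranked 214 among the 18652 genes ordered from the most negative. Dusp1 (-3.62), Jun (-3.25), Junb (-3.05) and Fosb (-2.34) also had no overlap between groups. Lower values without overlap were found in 23.5% of all genes. Since this contrast chose the set, the members are not compared with that share. Dusp1 stood at 19.7, 40.7, 26.6 and 24.4 CPM at rest and 2.44, 1.81, 1.16 and 4.05 CPM in inflammation, Jun at 22.4 to 32.7 against 2.18 to 4.04 CPM, and Junb at 160 to 188 against 19.2 to 25.3 CPM. Fosb had 58 reads over the resting and 10 over the inflamed libraries. The remaining members overlapped. Fos measured 81.0, 120, 101 and 90.8 CPM at rest and 102, 141, 92.0 and 103 CPM in inflammation (log2 fold change 0.08), and Zfp36 276 to 334 against 217 to 423 CPM (0.01). Atf3 had a mean of 33.4 ± 5.42 CPM (SD, n = 4) at rest and 17.0 ± 7.22 CPM in inflammation, with 1 inflamed library at 27.8 CPM inside the resting range. Mean Nr4a1 was 56.3 ± 19.3 CPM at rest and 41.9 ± 10.0 CPM in inflammation, and mean Egr1 0.785 ± 0.399 and 0.505 ± 0.258 CPM. With GC correction Junb stood at -2.05 in place of -3.05 and Ier2 at -4.53. Other values also moved in this contrast. Summed erythroid markers stood at 1.98 to 5.44 CPM in inflamed against 101 to 306 CPM in resting libraries. Basophil and mast cell markers stood at 106 to 239 against 3.12 to 10.9 CPM, and neutrophil markers at 1630 to 1890 against 685 to 982 CPM. Tissue macrophage markers summed to 527 to 702 against 275 to 395 CPM. T and NK cell markers summed to 5.25 to 8.52 against 10.3 to 16.1 CPM. The sums overlapped for dendritic cell markers (1480 to 5020 against 996 to 2680 CPM) and for monocyte markers (38000 to 49500 against 39900 to 45000 CPM, mostly Lyz2). The dendritic cell sum was mostly Cd74, at means of 2580 against 1030 CPM. Mean H2-Aa and H2-Ab1 were also higher in inflamed libraries, and the means of all other dendritic cell markers were lower. Among these, Cd209a stood at 2.79 against 88.5 CPM and Flt3 at 2.51 against 32.2 CPM. Genes with a single exon in their longest transcript took 4.47% to 5.05% of the reads in inflamed and 5.51% to 6.19% in resting CCR2+ve libraries. In inflamed libraries 17200 to 18100 genes had a read, and in resting ones 18200 to 19600. The part of these in the members' values was not tested.

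**Figure D2:**
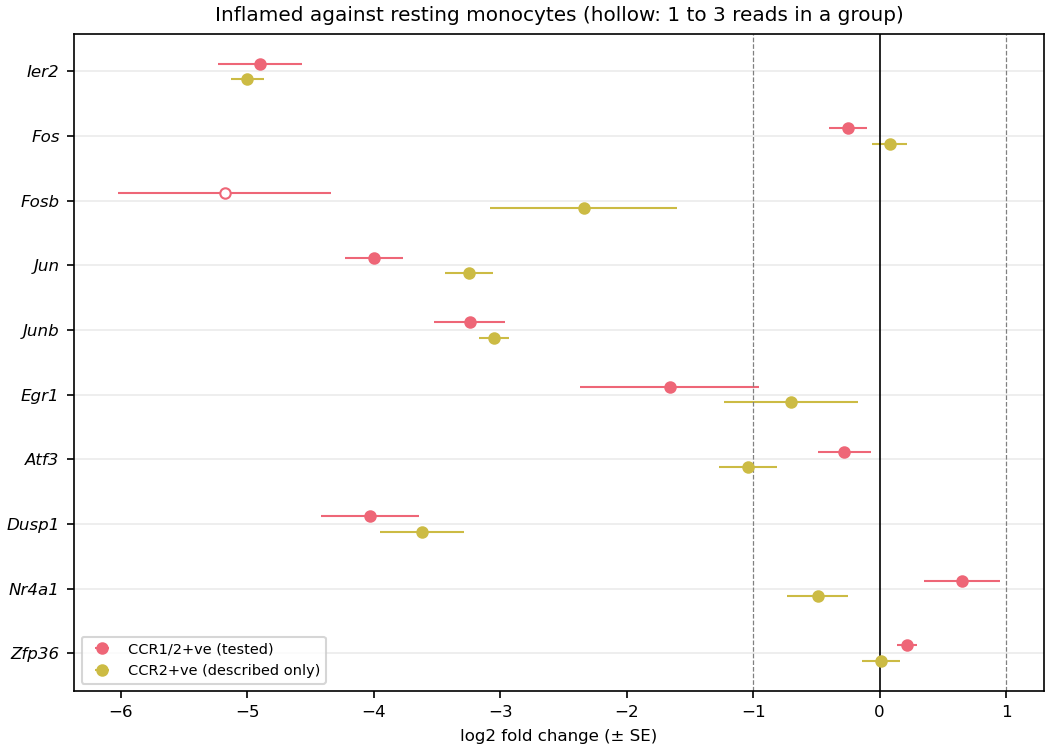
Fitted log2 fold change (± SE) of each member, inflamed against resting, in CCR1/2+ve (n = 3 against 4, tested) and CCR2+ve monocytes (n = 4 against 4, described only), with dashed lines at the fold cutoff and a hollow point where a group held 1 to 3 reads. Ier2, Jun, Junb and Dusp1 lie at or below -3.05 in both populations and Fos and Zfp36 within 0.25 of 0.

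Of the 5 members downregulated in inflamed CCR1/2+ve monocytes, 3 share a feature of their longest transcript. It has a single exon in Ier2, Jun and Junb, and in none of the 5 members that did not pass. Junb spans more bases than its annotated exons cover, so another of its transcripts has an intron. Single-exon genes are counted by longest transcript throughout. The longest transcripts of Junb (62.6%) and Ier2 (60.9%) are also rich in GC. The other 8 members lie at 51.9% to 57.3%, with Jun at 55.5%. Calls over the whole table also differed by these features. Among 7483 protein-coding genes with a mean of at least 10 CPM, 32.1% of the 380 single-exon genes were called lower, against 19.2% of the 7103 genes with more exons. Of the 153 genes with a GC content of 60% or more, 41.8% were called lower, and of the 44 single-exon genes with a GC content of 55% or more, 52.3%, with a median log2 fold change of -1.17. The relation to GC content was not a steady one, since of the 1200 genes of 55% to 60%, the class in which Jun, Fosb, Egr1 and Nr4a1 lie by GC content, 19.6% were called lower and 23.2% higher, with a median of 0.32 against 0.11 over all 7483 genes. The 44 single-exon genes include Ier2, Jun and Junb. An offset for GC content, an alternative chosen after seeing the data, moved Junb from -3.24 to -2.09 and Ier2 from -4.90 to -4.25, and left Jun (-4.17), Dusp1 (-4.18) and Fosb (-5.38) near their values. All 5 were still called lower. Single-exon genes took 6.14% to 6.86% of the reads in resting and 4.5% to 4.89% in inflamed CCR1/2+ve libraries. Mitochondrial genes took 0.585% to 0.987% and 0.32% to 0.544%, and 18600 to 20000 and 17000 to 17700 genes had a read. The part of these measures in the members' changes was not tested.

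**Figure D3:**
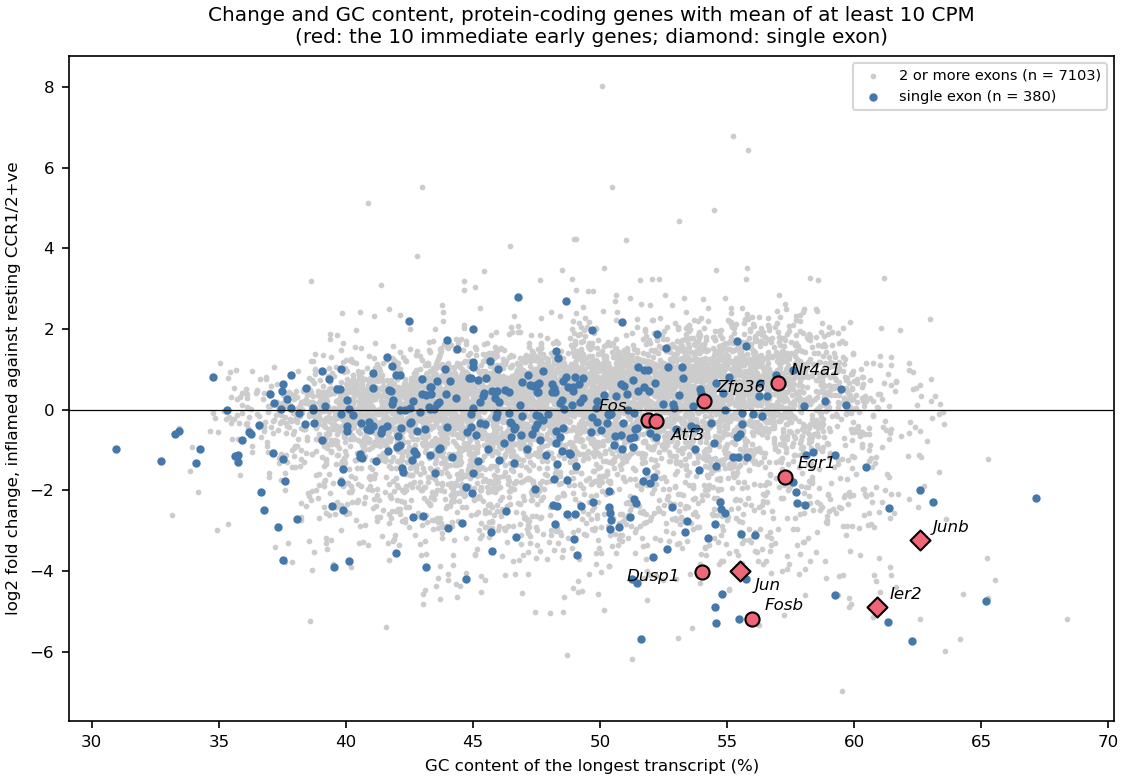
Log2 fold change, inflamed against resting CCR1/2+ve, against the GC content of the longest transcript for protein-coding genes with a mean of at least 10 CPM (grey: 7103 genes with more than 1 exon, blue: 380 single-exon genes), with the 10 immediate early genes in red. Ier2, Jun and Junb (diamonds) lie among the single-exon genes of high GC content, and Dusp1 and Fosb, which have several exons, lie as low.

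The AU-rich heptamer and the cyclic AMP response core were found equally often in downregulated and other members. The heptamer was present in Fosb, Jun and Dusp1 of the 5 downregulated members and in Fos, Atf3 and Zfp36 of the other 5. TGACG was present in Fosb, Junb and Dusp1 among the 4 downregulated members with a promoter entry and in Fos, Atf3 and Nr4a1 among the other 4.

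The wider early response program was read from lists of genes outside the set. Of 26 tested immediate early transcription factors, 12 were downregulated and 2 upregulated in inflamed CCR1/2+ve monocytes, where 19.4% and 9.16% of all genes were. The list's median log2 fold change was -1.14 against -0.25 over all genes. Cebpd, a single-exon C/EBP factor of the acute phase response, went from 149 ± 14.2 to 3.16 ± 0.543 CPM (SD, n = 4 and 3, log2 fold change -5.68, edgeR adjusted p = 1.29e-09). Klf4 (-2.19) and Klf2 (-2.57), Krüppel-like factors of monocyte differentiation and quiescence, fell with it. Bhlhe40 (1.97) and Egr2 (2.45), a relative of Egr1, rose, Egr2 from 0.380 ± 0.201 to 2.35 ± 1.19 CPM. Of 30 feedback and effector genes, 12 fell and 5 rose (median -0.89, against the same values over all genes). Zfp36l2, a relative of Zfp36, fell from 140 ± 24.1 to 24.4 ± 2.05 CPM (log2 fold change -2.64, adjusted p = 3.52e-08), whereas Zfp36l1, the third member of that family, rose from 1.33 ± 0.315 to 27.1 ± 16.8 CPM (4.23, adjusted p = 6.73e-05). Rhob (-3.11), a single-exon GTPase gene, and Btg1 (-1.44) fell, and Pim1 (2.12) and Ier3 (2.61) rose.

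Upstream of the members, 9 of 24 tested genes of the route from Ras to the serum response element were called lower and none higher (median -0.52, edgeR; 19.4% and 9.16% of all genes were called lower and higher). Map2k1, the MAP kinase kinase MEK1, fell from 200 ± 19.5 to 39.2 ± 3.46 CPM (log2 fold change -2.48, adjusted p = 9.31e-09), and the JNK gene Mapk9 (-2.76) fell as well. Among 14 early cytokine and chemokine genes, Tnf (-2.10) and Ccl3 (-1.18) fell and Cxcl1 was called higher from 0 reads at rest, at a mean of 0.185 CPM. Of 11 heat shock genes, Dnajb1 (-1.97) and Hspa1a (-1.98) fell and none rose.

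The second comparison asked whether the populations differ at rest. CCR1/2+ve monocytes held less Atf3 and Nr4a1 than CCR2+ve monocytes, and these 2 of 10 members were called lower beside 1.9% of all genes. None was called higher, beside 2.34%. The median log2 fold change was -0.39 over the members and 0.03 over all genes. Atf3 measured 12.0, 9.45, 11.8 and 12.9 CPM in CCR1/2+ve and 40.0, 27.1, 34.9 and 31.6 CPM in CCR2+ve libraries. The lowest CCR2+ve library had more than 2-fold the highest CCR1/2+ve one, and the log2 fold change was -1.46 ± 0.13 (edgeR, adjusted p = 5.58e-05). Nr4a1 measured 28.8, 13.3, 18.3 and 25.7 CPM in CCR1/2+ve and 68.8, 36.3, 43.8 and 76.4 CPM in CCR2+ve libraries. The groups did not overlap despite a wide spread within each, and the log2 fold change was -1.31 ± 0.29 (edgeR, adjusted p = 0.0125). Without a filter on low counts its adjusted p was 0.0611.

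Without the fold cutoff, 4 members were lower beside 8.44% of all genes, and these same 4 did not overlap between groups, beside 12% of all genes in that direction. Zfp36 was lower in every CCR1/2+ve library (187 to 217 CPM) than in every CCR2+ve library (276 to 334 CPM), with a log2 fold change of -0.53 ± 0.08 (edgeR, adjusted p = 0.000548), below the fold cutoff. Junb likewise did not overlap, at 89.4 to 148 against 160 to 188 CPM (-0.40 ± 0.12, edgeR, adjusted p = 0.0411). In Ier2 the highest CCR1/2+ve library reached the lowest CCR2+ve one, at 304 to 385 against 385 to 473 CPM (-0.20 ± 0.08). Fos (0.29), Jun (0.08), Dusp1 (-0.37) and Egr1 (-0.45) overlapped and did not pass. Fosb had 30, 59, 11 and 50 reads in CCR1/2+ve and 8, 21, 8 and 21 reads in CCR2+ve libraries. Its log2 fold change of 1.16 ± 0.50 did not pass (edgeR, adjusted p = 0.138), but with the library number as a block it was 1.13 and was called higher (adjusted p = 0.0298), as it was without resting CCR1/2+ve replicate 3 (1.44, adjusted p = 0.0479).

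Among other early genes, 5 of 26 transcription factors and 5 of 30 feedback and effector genes were called lower in resting CCR1/2+ve monocytes. None of either list was called higher, and 1.9% of all genes were called lower and 2.34% higher. None of 14 cytokine and chemokine genes (median log2 fold change 0.07), 24 upstream genes (-0.14) or 11 heat shock genes (0.04) was called. Klf2 measured 30.1 ± 5.92 against 127 ± 46.1 CPM (log2 fold change -2.0, edgeR adjusted p = 0.00039), Cebpb, a C/EBP factor of monocytes, 22.4 ± 4.72 against 59.3 ± 17.8 CPM (-1.33), and Dusp6, another MAP kinase phosphatase, 46.1 ± 5.38 against 118 ± 15.7 CPM (-1.28). In the same libraries 7 of 10 dendritic cell markers were called lower and none higher, with a summed level of 236 to 557 CPM in CCR1/2+ve against 996 to 2680 CPM in CCR2+ve libraries. Of 10 monocyte markers 2 were called lower (26500 to 38200 against 39900 to 45000 CPM, mostly Lyz2). Of 10 tissue macrophage markers 4 were called higher and 1 lower, while their sum, mostly Adgre1, was 218 to 302 against 275 to 395 CPM. Of 9 tested T and NK cell markers 1 was called higher and 3 lower, and the sum of 31.2 to 81.6 against 10.3 to 16.1 CPM was mostly Nkg7 (means of 48.4 and 8.33 CPM). Of 10 neutrophil markers 2 were called higher (858 to 1170 against 685 to 982 CPM). No marker of these 5 lists was at 0 throughout a resting group. Of 5 tested eosinophil markers 2 were called higher (3.29 to 5.29 against 0.831 to 1.61 CPM). Mitochondrial genes took 0.585% to 0.987% of the reads in CCR1/2+ve and 0.347% to 0.59% in CCR2+ve libraries. Single-exon genes took 6.14% to 6.86% and 5.51% to 6.19%. The part of these markers and measures in the differences was not tested.

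In inflammation no difference between the populations passed. None of the 10 members was called in either direction (edgeR quasi-likelihood test), beside 0.0429% of all genes lower and 0.102% higher, and DESeq2 called none. Values over all 10 include Ier2, whose inflamed CCR2+ve values chose the set. The log2 fold change of CCR1/2+ve over CCR2+ve libraries was negative for all 10, with a median of -0.66 against -0.03 over all genes, and 3 reached an unadjusted p below 0.05, beside 4.54% of all genes in that direction. Atf3 alone did not overlap, which 4.21% of all genes did not in that direction. It stood at 7.03, 12.2 and 11.8 against 14.4, 13.6, 27.8 and 12.3 CPM, with the closest libraries 12.2 and 12.3 CPM (log2 fold change -0.73 ± 0.31, adjusted p = 0.526). Nr4a1 measured 24.6, 48.3 and 37.7 CPM in CCR1/2+ve and 40.9, 28.0, 48.8 and 49.7 CPM in CCR2+ve libraries, a log2 difference of -0.20 ± 0.25 (adjusted p = 0.864). Ier2 (-0.13 ± 0.28) and Fos (-0.08 ± 0.16) changed sign in some alternatives. The remaining values were Zfp36 -0.36 ± 0.18, Junb -0.63 ± 0.23, Jun -0.70 ± 0.30, Dusp1 -0.80 ± 0.43 and Egr1 -1.42 ± 0.66. Fosb rested on 2 against 10 reads. The resting and inflamed differences between populations were not tested against each other, because the interaction contains the contrast that chose the set.

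**Figure D4:**
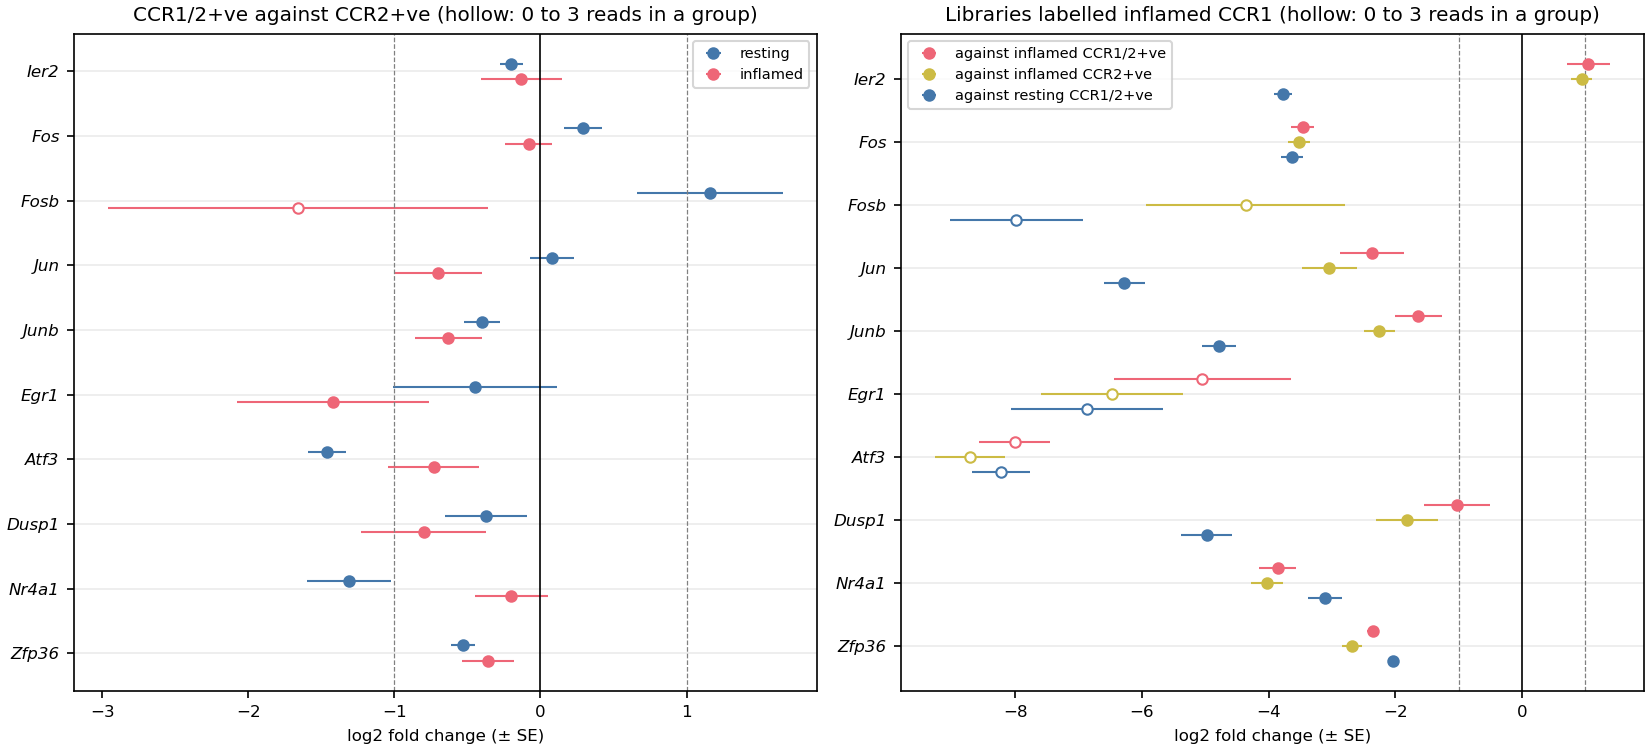
Fitted log2 fold change (± SE) of each member between populations at rest and in inflammation (left) and for the libraries labelled inflamed CCR1 against 3 other groups (right), with hollow points where a group held 0 to 3 reads and no point where both did. At rest Atf3 and Nr4a1 lie beyond the dashed line at -1, and on the right Ier2 is the only member above 0, against either inflamed population.

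The libraries labelled inflamed CCR1, which lack most monocyte marker expression, stood apart in the members too. All 10 were called lower than in resting CCR1/2+ve monocytes, beside 25.6% of all genes, and none overlapped, beside 30.2%. The median log2 fold change was -4.89 against -0.24 over all genes. Against inflamed CCR2+ve monocytes 9 of 10 were called lower, beside 16.8% of all genes. Against inflamed CCR1/2+ve monocytes 7 were called lower and 1 higher, beside 14.6% and 13.2%. Gate and cell type differ together in all 3 comparisons, and treatment too in the first, so they cannot be told apart. The 3 comparisons share the same 4 libraries. In these, the 10 top genes took 19.2% to 22.2% of the reads. They took 11.2% to 12% in inflamed CCR1/2+ve and 11.2% to 12.4% in inflamed CCR2+ve libraries. The part of this measure in the differences was not tested.

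Fos, which did not pass in inflamed CCR1/2+ve monocytes, measured 10.6, 11.6, 8.46 and 7.21 CPM in the libraries labelled inflamed CCR1. Every other library of the series lay at 81.0 CPM or more. The log2 fold change was -3.46 ± 0.18 against inflamed CCR1/2+ve (edgeR, adjusted p = 4.93e-09) and -3.52 ± 0.18 against inflamed CCR2+ve monocytes (adjusted p = 5.41e-11). Zfp36 measured 46.5, 50.7, 51.7 and 55 CPM, below the 187 CPM of the lowest other library, with log2 fold changes of -2.35 ± 0.10 and -2.69 ± 0.16 against the same groups (edgeR, adjusted p = 3.59e-10 and 5.84e-10). Nr4a1, at 1.64, 2.08, 3.37 and 3.16 CPM, was lower by -3.86 ± 0.29 and -4.03 ± 0.25 (adjusted p = 1.49e-06 and 9.93e-10).

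Atf3 was nearly absent, with 0, 3, 0 and 0 reads. Its level was 300.4-fold lower than in inflamed CCR1/2+ve monocytes (exact 95% interval 102.3 to 1460, counting error only) and 486.9-fold lower than in inflamed CCR2+ve monocytes (166.3 to 2364). Egr1 had 0 reads in all 4 libraries, at least 5.49-fold lower than in inflamed CCR1/2+ve monocytes (12 reads) and at least 14.8-fold lower than in inflamed CCR2+ve monocytes (45 reads), where the bound sets 3 reads over the whole group as the limit that a count of 0 allows. Its call against CCR1/2+ve monocytes was lost without inflamed CCR1/2+ve replicate 4 (edgeR, adjusted p = 0.0561). Fosb also had 0 reads, which gives no fold against the 2 reads of inflamed CCR1/2+ve monocytes. Against the 10 reads of inflamed CCR2+ve monocytes Fosb was at least 3.295-fold lower and was called (edgeR, adjusted p = 0.0341). The call was lost with DESeq2 (Wald test, adjusted p = 0.135). In edgeR it was lost with the library number as a block (adjusted p = 0.0789) and without any 1 of the libraries labelled inflamed CCR1 (0.0589 to 0.0636). It was also lost without inflamed CCR2+ve replicate 1 (0.0586) or 4 (0.110).

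Jun measured 0.773, 0.362, 0.139 and 0.188 CPM, from 17, 8, 3 and 4 reads, and Junb 5.14, 6.65, 4.67 and 2.26 CPM. Both lay below all other libraries, with log2 fold changes against inflamed CCR1/2+ve monocytes of -2.37 ± 0.50 and -1.64 ± 0.37 (edgeR, adjusted p = 0.00159 and 0.00508). Dusp1, at 0.910, 0.995, 0.601 and 0.141 CPM, overlapped with inflamed CCR1/2+ve (-1.03 ± 0.52, adjusted p = 0.130) but not with inflamed CCR2+ve monocytes (-1.82 ± 0.49, adjusted p = 0.00537).

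Ier2 went the other way against the inflamed populations. It measured 31.8, 24.5, 29.0 and 19.1 CPM in the libraries labelled inflamed CCR1, above all 7 inflamed monocyte libraries, whose highest value was 19 CPM, and far below the resting ones. The log2 fold change was 1.05 ± 0.34 against inflamed CCR1/2+ve (edgeR, adjusted p = 0.0382) and, as a description since the inflamed CCR2+ve values chose the set, 0.94 ± 0.17 against inflamed CCR2+ve monocytes. The call against CCR1/2+ve monocytes was marginal and was lost without inflamed CCR1/2+ve replicate 2 (0.74) or 3 (1.01), or without replicate 1 (0.98), 2 (1.07) or 3 (1.00) of the libraries labelled inflamed CCR1. It was also lost without a filter on low counts (adjusted p = 0.0764), with the library number as a block (adjusted p = 0.12) and with GC correction, which left 0.76. Against resting CCR1/2+ve monocytes Ier2 fell by 3.77 on the log2 scale (adjusted p = 1.62e-11). In the lists, 10 and 13 of 26 transcription factors were called lower and 4 and 4 higher against inflamed CCR1/2+ve and CCR2+ve monocytes, as were 10 and 15 of 30 feedback and effector genes lower and 6 and 6 higher, and 5 and 5 of 14 cytokine and chemokine genes lower and 2 and 1 higher. Of 24 upstream genes 1 and 1 were called lower and none higher. Of 11 heat shock genes 1 and 1 were called lower and 1 and 2 higher. Of all genes, 14.6% and 16.8% were called lower and 13.2% and 14.4% higher. Myc was higher in these libraries than in either inflamed monocyte population (116 ± 23.4 CPM against 7.33 ± 4.03 and 8.02 ± 2.05 CPM, log2 fold changes 3.97 and 3.86), and Dnajb1 (2.04 and 1.89) and Rhob (1.72 and 1.62) were higher likewise. Mcl1, a survival gene with a short-lived mRNA, was lower (-2.63 and -2.61), as was Fosl2, a relative of Fos (-2.27 and -2.19). Of the monocyte markers 8 of 10 were called lower against each inflamed population, and of the neutrophil markers 7 and 8 of 10 higher and 1 lower, the collagenase gene Mmp8 (9.1 against 1610 and 1040 CPM). Dendritic cell markers were called lower in 7 and 6 of 10, tissue macrophage markers in 3 and 6 of 10 with 1 higher in each, and eosinophil markers higher in 4 of 5 in both (39.1 to 90.3 CPM against 2.1 to 3.86 CPM). Of 9 T and NK cell markers 2 and 4 were called lower and 1 higher in each, and their sum of 1360 to 1710 CPM, against 5.25 to 8.52 CPM in inflamed monocytes, was mostly Nkg7 (1560 against 5.48 and 2.49 CPM). Erythroid markers were called lower in 2 and 5 of 10 with 1 higher in each, and B cell markers lower in 3 and 1 of 10 and higher in 2 and 1. The part of these markers in the differences was not tested.

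Within groups, each library's deviation from its group mean (log2 CPM) was compared between members over the 19 libraries, from which 5 group means had been taken. The 8 members with a mean of at least 10 CPM form 28 pairs, with a median Pearson r of 0.01, against 0.07 for all pairs of the 7685 genes at that level. Of these 28 pairs 4 exceeded 0.5 (14.3%), as did 10.9% of all pairs. With the scarce Fosb and Egr1 the 45 pairs had a median r of 0.08. These values are descriptions, and libraries of a group share preparation and depth.

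The closest pair of opposite sign was Fos and Nr4a1, with r = -0.89 (Spearman rho = -0.80). Leaving out the 2 libraries farthest from the median of Fos gave r = -0.90. Of all pairs of genes, 0.00361% had an r as negative. The pair was picked after its value was seen. Library number 2 had the highest Fos of its group in all 5 groups, at 138, 120, 127, 11.6 and 141 CPM, and the lowest Nr4a1 in 4 of 5. What the number marks is not stated in the labels. Without the 5 libraries numbered 2, r was -0.79 over 14 libraries. Ier2 and Junb were the closest pair of like sign, with r = 0.68 (rho = 0.62, r = 0.63 without the 2 farthest libraries, and 0.91 without the 5 libraries numbered 2), and 3.12% of all pairs had an r at least as high. Fos and Dusp1 followed with r = 0.61 (rho = 0.66, and 0.68 without the 2 farthest), which was 0.77 without the libraries numbered 2 and 0.42 without the libraries labelled inflamed CCR1. Fos and Jun, which can pair in AP-1, had r = 0.53.

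**Figure D5:**
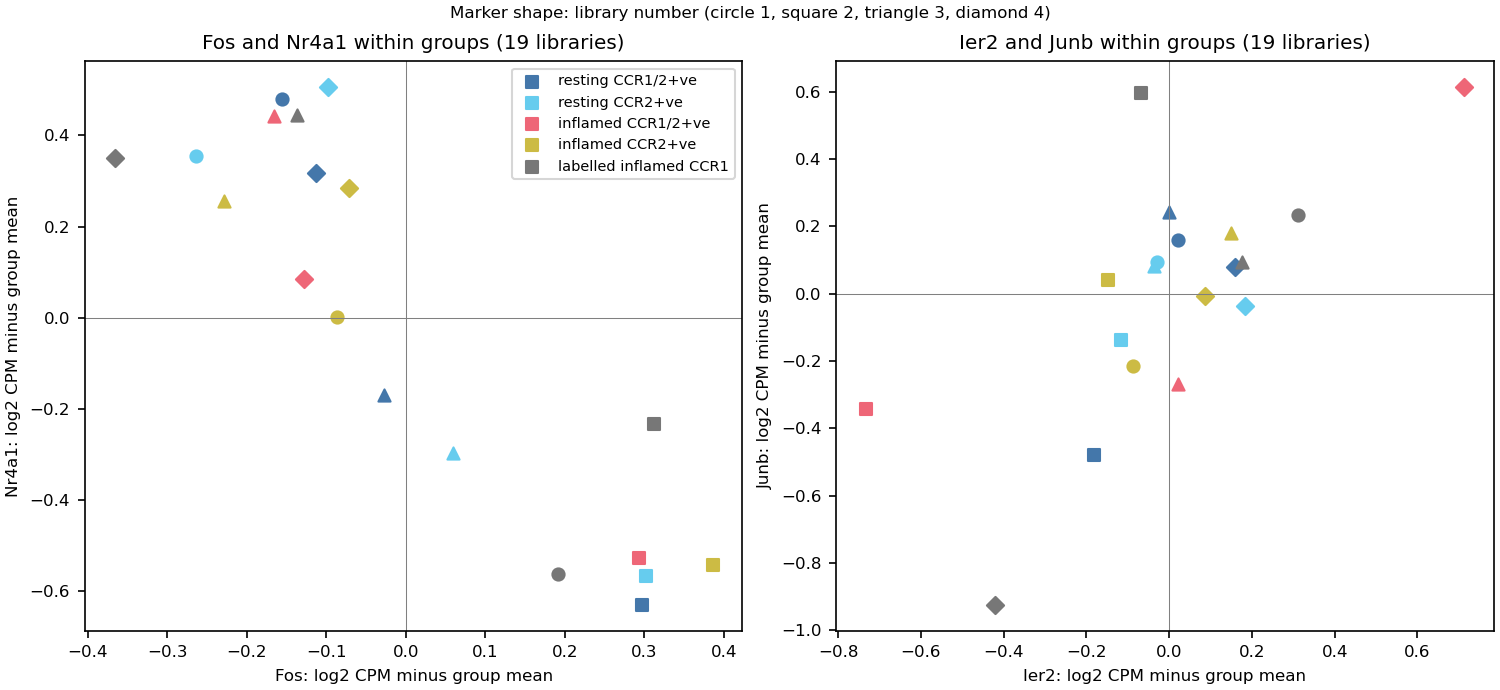
Deviation of each of the 19 libraries from its group mean in log2 CPM, for Nr4a1 against Fos (left) and Junb against Ier2 (right), with groups by colour and library numbers by shape. On the left the 5 squares (number 2) lie at high Fos and low Nr4a1, and on the right the points rise together with r = 0.68.

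The genes outside the set whose deviations were most like the mean deviation of the 8 members with at least 10 CPM were Emc6 (r = 0.90), 0610040J01Rik (0.89), Dus1l (0.89), Lyar (0.88) and Thumpd1 (0.87), over 19 libraries and picked as the highest of 7685 genes.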

How the data were processed

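Paired-end libraries were made with a low-input kit from sorted cells. Per the submitters' processing notes the authors aligned reads with STAR 2.7.10a to GRCm38, and per the study's methods reads mapped to 1 place were counted per gene. The deposited table holds raw counts of reads per gene in 20 columns. Of these, 19 matched a sample and 1 matched none and was not used. Genes were named from GENCODE release 21 (50744 of 50854 identifiers). No libraries of a group agreed within sampling noise (chi-square per gene 11.1 to 73.4).

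Members and lists were chosen with earlier results of these data known. Counts were tested in edgeR 4.0.16 (TMM, quasi-likelihood test, two-sided, the 2 groups of each comparison only, Benjamini-Hochberg over the 18652 genes that averaged 1 read or more) under R 4.3.3. Calls required an adjusted p under 0.05 together with a log2 fold change of 1 or more in either direction. The study itself used another count model, which is an alternative here (DESeq2 1.42.0). Levels are CPM with TMM factors over all 19 libraries. SE is the log2 fold change over the root of its F. Deviations used log2 CPM with a prior count of 2. All 10 members are named, with up to 3 genes per list and direction of smallest p among calls without overlap, of which a selection is printed, and the 5 genes most like the members. Scripts were tested on simulated data. Equal library numbers deviated together (every r above 0.1) in resting CCR1/2+ve against CCR2+ve (r = 0.306 to 0.611 over 7685 genes) and in inflamed CCR1 against inflamed CCR2 libraries (0.134 to 0.247), which is a hint from the data and not stated in the labels. Promoters are RefSeq's, and motifs were searched on both strands.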

Additional observations from a re-analysis of the deposited data

Results flagged for a closer look

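Of 38 groups of 4 libraries examined over the members, 2 held a library far from the other 3 by Dixon's criterion. Both concern Atf3. The criterion is set so that chance meets it in about 1 of 20 groups. That rate does not hold where 3 libraries have 0 reads, since any read in the remaining library then meets the criterion. Inflamed CCR2+ve replicate 3 measured 27.8 CPM, while the other 3 libraries lay at 12.3 to 14.4 CPM. Replicate 2 of the libraries labelled inflamed CCR1 measured 0.136 CPM, from 3 reads, while the other 3 had 0 reads.

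The values of Nr4a1 had opposite signs in the 2 monocyte populations, neither as a called change. All 3 inflamed CCR1/2+ve libraries lay above the resting CCR1/2+ve mean (log2 fold change 0.65, adjusted p = 0.105), and all 4 inflamed CCR2+ve libraries lay below the resting CCR2+ve mean (-0.49, not tested), though the groups overlapped in both populations. The difference was not tested, since it contains the contrast that chose the set.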

How the results depend on the processing

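By inflammation in CCR1/2+ve monocytes, 5 to 6 members were called lower when 1 library was left out. In the libraries labelled inflamed CCR1, 10 were called lower against resting CCR1/2+ve and 8 to 9 against inflamed CCR2+ve monocytes. Against inflamed CCR1/2+ve monocytes the count was 6 to 7, and 5 with the replicate block. These counts stayed within 1.5 times their value in every alternative run, DESeq2, another scaling and all 19 libraries in one fit included. With DESeq2 the count against inflamed CCR2+ve monocytes was 8, without Fosb. Between resting populations, 1 member was called lower without a filter on low counts and 4 without the fold cutoff. There, 1 was called higher with the replicate block, 1 with the replicate block and GC correction, and 0 to 1 when 1 library was left out (Fosb each time). The higher call of Ier2 in the libraries labelled inflamed CCR1 against inflamed CCR1/2+ve monocytes fell to 0 without a filter, with the replicate block, with GC correction and with both, and was 0 to 1 when 1 library was left out. There the numbers do not pair the libraries by the criterion used, and the block lowered the lower calls from 7 to 5. Against inflamed CCR2+ve monocytes the count of higher calls was 1 without the fold cutoff and 0 to 1 when 1 library was left out, but the member is Ier2, whose values there chose the set, so this is no test of it. Of the single members, Jun between resting populations changed sign without CCR1/2+ve replicate 4 (-0.03) or CCR2+ve replicate 3 (-0.02), in a range of -0.03 to 0.19. Between inflamed populations Ier2 did with GC correction (0.13), with the block and GC correction (0.03) and without CCR1/2+ve replicate 2 (0.17, range -0.55 to 0.17), Fos without CCR1/2+ve replicate 4 (0.00) or CCR2+ve replicate 2 (0.07, range -0.23 to 0.07), and Nr4a1 without CCR1/2+ve replicate 2 (0.03, range -0.44 to 0.03). The causes were not tested. The replicate block changed no other call where the numbers pair the libraries than those of Fosb. The GC corrections were chosen after seeing the data. With filterByExpr, Fosb or Egr1 was not tested in some comparisons. Fosb and Egr1 had under 60 reads in any library, and whether depth or the spread between libraries limits them was not tested.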
